A study of Mus musculus with 12 samples.

Results

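Etnppl, Plin4, Sult1a1, Mfsd2a, Pdk4, Angptl4, Cebpa, Cebpb and Cebpd are genes of lipid handling, fuel choice and their transcriptional control, 9 of the 45777 genes in the deposited table. They were chosen by symbol: Etnppl, Plin4, Sult1a1, Mfsd2a and Cebpa because their counts were lower in these same libraries when astrocytes lacked the glucocorticoid receptor, and the other 4 as members of related families or pathways. For the 5 genes picked for their fall, the difference between genotypes is therefore a description without a test; for Pdk4, Angptl4, Cebpb and Cebpd it was tested. All 9 passed the filter on low counts, with between 12 and 21777 counts in each library.

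RNA came from astrocytes of the mouse cerebral cortex at 14 days of age, purified by immunopanning and magnetic beads. The design crosses genotype with rearing in 4 groups of 3 libraries. Cre- mice carry floxed alleles of Nr3c1, the glucocorticoid receptor gene (Nr3c1 flox/flox), and AGR cKO mice carry in addition Aldh1l1-CreERT2, a recombinase that tamoxifen activates and that the astrocyte promoter Aldh1l1 drives. Mice of all 4 groups, controls included, received 4-hydroxytamoxifen on days 5 to 7. In the ESD groups (the labels' name for early life stress) pups spent 3 h per day away from their mother from day 1 to day 14, and in the control groups they did not. The labels number the alleles upward with the replicate, so groups follow the sample titles. Nothing states that the libraries of a group came from separate animals, so p-values measure the spread between these libraries, which may be partly technical.

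Glucocorticoids cross the cell membrane, bind their receptor, and the complex enters the nucleus and binds DNA, where it raises or lowers transcription. In liver, fat and muscle this hormone is known for shifting fuel use from glucose towards fat and for acting together with C/EBP transcription factors, which bind DNA as dimers through a leucine zipper. Astrocytes take up and store fatty acids, keep few lipid droplets at rest, and supply neurons with lipids and lactate.

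Libraries held 42603546 to 52130081 counts. Nr3c1 itself stood at 199 to 237 CPM (read counts scaled to library size) in the 6 Cre- libraries and at 66.6 to 108 CPM in the 6 AGR cKO libraries, without overlap. The labels do not name the floxed exon, and reads from the remaining exons are part of these counts. Astrocyte markers summed to 44300 to 62900 CPM, microglia and macrophage markers to 172 to 1070 CPM, endothelial markers to 323 to 2430 CPM and neuron markers to 18.6 to 50.2 CPM, and no marker of these lists was at 0 in all libraries of a group. The third library of Cre- ESD stood apart: Fkbp5, which glucocorticoids induce and whose protein binds the receptor complex, was at 103 CPM there and at 11.1 and 9.93 CPM in the other libraries of its group. For the 9 genes, genotype differences under ESD that rest on that library are given with and without it. So are the stress values in Cre- mice that it moved most.

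**Figure D1:**
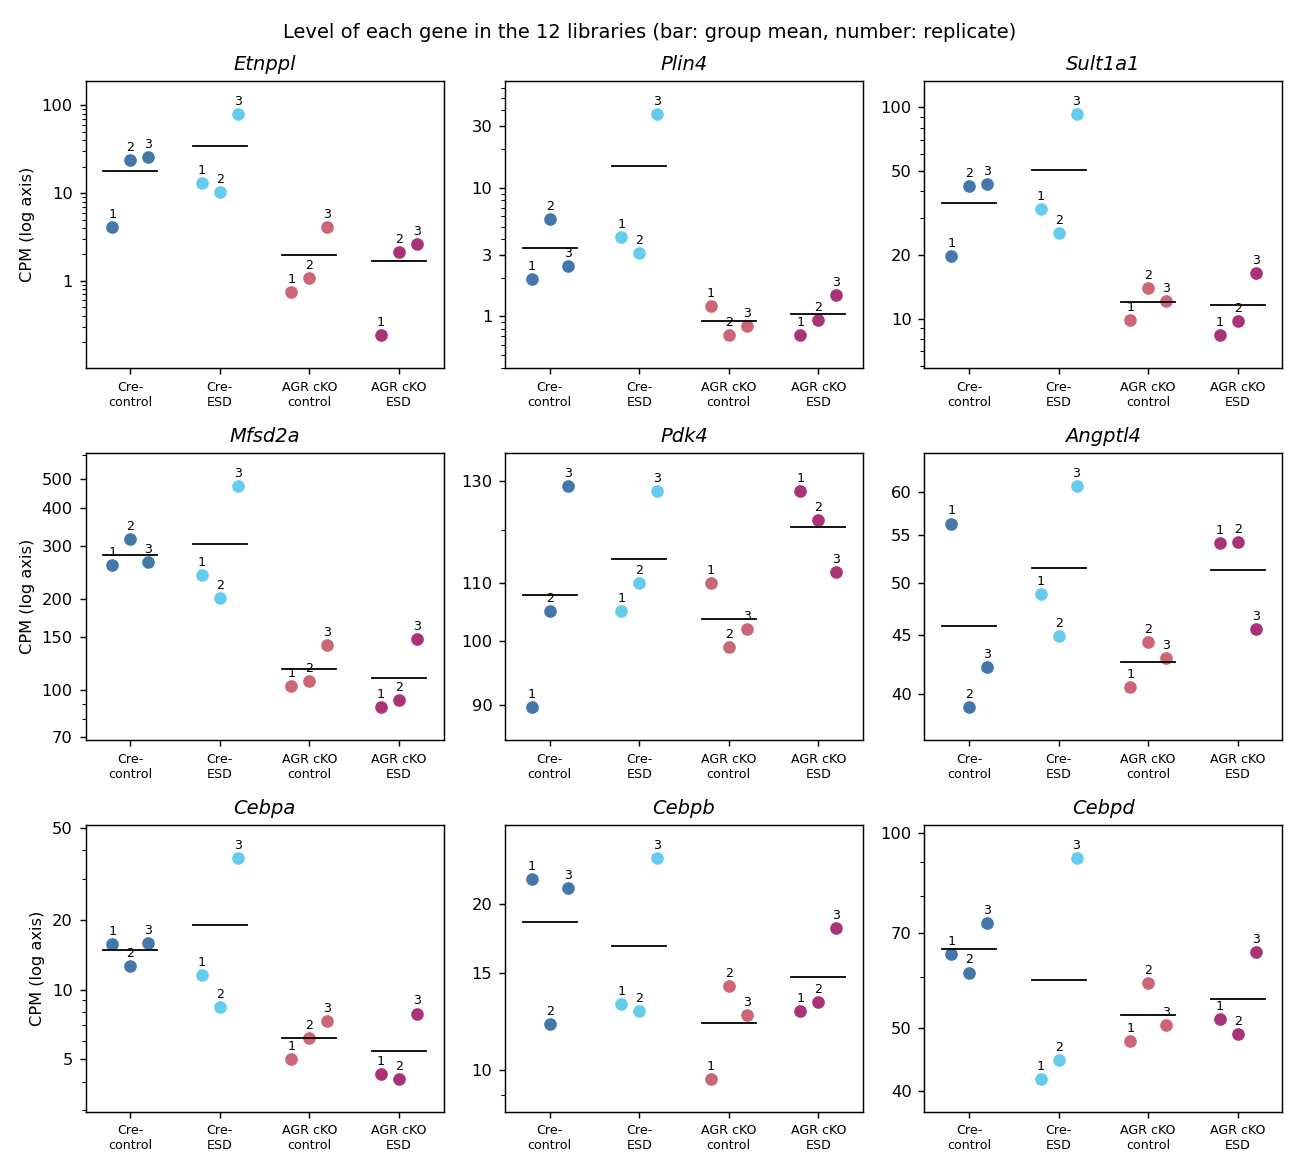
Level of each of the 9 genes in CPM (log axis, its range set for each gene) in the 3 libraries of each group; each point is a library with its replicate number and each bar the group mean. All 6 Cre- libraries lie above all 6 AGR cKO libraries for Etnppl, Plin4, Sult1a1, Mfsd2a and Cebpa, by a ratio of 1.00 at the closest pair for Etnppl and 1.36 for Mfsd2a, while Pdk4 and Angptl4 stay within 1.43-fold and 1.56-fold over the 12 libraries.

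Etnppl (gene ID 71760, mm10 chromosome 3, 130617448 to 130635750, plus strand) encodes the phospho-lyase that breaks down phosphoethanolamine, an intermediate of membrane phospholipid turnover. Cre- control libraries held 4.08, 24.0 and 25.7 CPM and Cre- ESD libraries 13.2, 10.2 and 79.6 CPM. In AGR cKO mice the values were 0.743, 1.09 and 4.07 CPM with control rearing and 0.241, 2.13 and 2.62 CPM under ESD. The first Cre- control library and the third AGR cKO control library all but met, and the remaining Cre- libraries were well above every AGR cKO library. Relative to Cre-, the fitted log2 fold change of AGR cKO was -3.20 ± 1.04 (SE) with control rearing and -4.37 ± 1.09 under ESD, or -2.82 without the third Cre- ESD library. Etnppl varied most of the 9 genes, by 330-fold over the 12 libraries.

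Plin4 (gene ID 57435, chromosome 17, 56100587 to 56109948, minus strand) encodes a perilipin, a protein that coats the surface of lipid droplets. It was the least abundant of the 9 per length, at 0.883, 2.59 and 1.04 TPM (the deposited level scaled to depth and transcript length) in Cre- control. Cre- control libraries held 1.96, 5.72 and 2.48 CPM and Cre- ESD libraries 4.17, 3.12 and 37.4 CPM, so that 1 library carried most of the ESD signal. In AGR cKO mice the values were 1.21, 0.717 and 0.846 CPM with control rearing and 0.723, 0.935 and 1.48 CPM under ESD, all below every Cre- library. AGR cKO thus differed from Cre- by a log2 fold change of -1.86 ± 0.849 with control rearing and -3.83 ± 0.878 under ESD. Without the third Cre- ESD library the ESD value was -1.80.

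Sult1a1 (gene ID 20887, chromosome 7, 126672865 to 126690443, minus strand) encodes a cytosolic sulfotransferase that adds sulfonate to phenols, among them drugs and catechols. Cre- control libraries held 19.8, 42.3 and 43.3 CPM and Cre- ESD libraries 33.1, 25.4 and 92.6 CPM. AGR cKO values were 9.83, 13.9 and 12.1 CPM with control rearing and 8.37, 9.79 and 16.5 CPM under ESD. The genotypes did not overlap, and the first Cre- control library came closest to AGR cKO. Fitted log2 fold changes of AGR cKO against Cre- were -1.56 ± 0.464 with control rearing and -2.13 ± 0.47 under ESD, or -1.34 without the third Cre- ESD library.

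Mfsd2a (gene ID 76574, chromosome 4, 122946850 to 122961194, minus strand) encodes a sodium-dependent transporter of lysophosphatidylcholine that carries docosahexaenoic acid, and it is best known in the endothelium of the blood-brain barrier. With 379 ± 30.5 TPM (SD, n = 3) in Cre- control it was the most abundant of the 9 genes per length. Cre- control libraries held 260, 316 and 265 CPM and Cre- ESD libraries 240, 201 and 474 CPM. In AGR cKO mice the values were 103, 107 and 141 CPM with control rearing and 88.0, 93.0 and 148 CPM under ESD. Each Cre- library was at least 1.36 times each AGR cKO library, the widest gap among the 5 picked genes. Between genotypes the log2 fold change came to -1.26 ± 0.296 with control rearing and -1.48 ± 0.297 under ESD, or -1.01 without the third Cre- ESD library.

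Cebpa (gene ID 12606, chromosome 7, 35119293 to 35121928, plus strand) encodes C/EBP alpha, which drives late adipocyte differentiation and many metabolic genes of liver and fat. Cre- control libraries held 15.7, 12.7 and 15.9 CPM and Cre- ESD libraries 11.6, 8.41 and 37.2 CPM. AGR cKO values were 4.99, 6.17 and 7.29 CPM with control rearing and 4.32, 4.12 and 7.88 CPM under ESD. The Cre- control libraries lay close together and far above AGR cKO, whereas the second Cre- ESD library was only 1.07 times the highest AGR cKO library. Relative to Cre-, the fitted log2 fold change of AGR cKO was -1.27 ± 0.464 with control rearing and -1.81 ± 0.47 under ESD, or -0.88 without the third Cre- ESD library.

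Without that library the 5 picked genes kept a negative fold change under ESD, but each of these values was smaller, and each was then closer to 0 than the value of control mice.

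**Figure D2:**
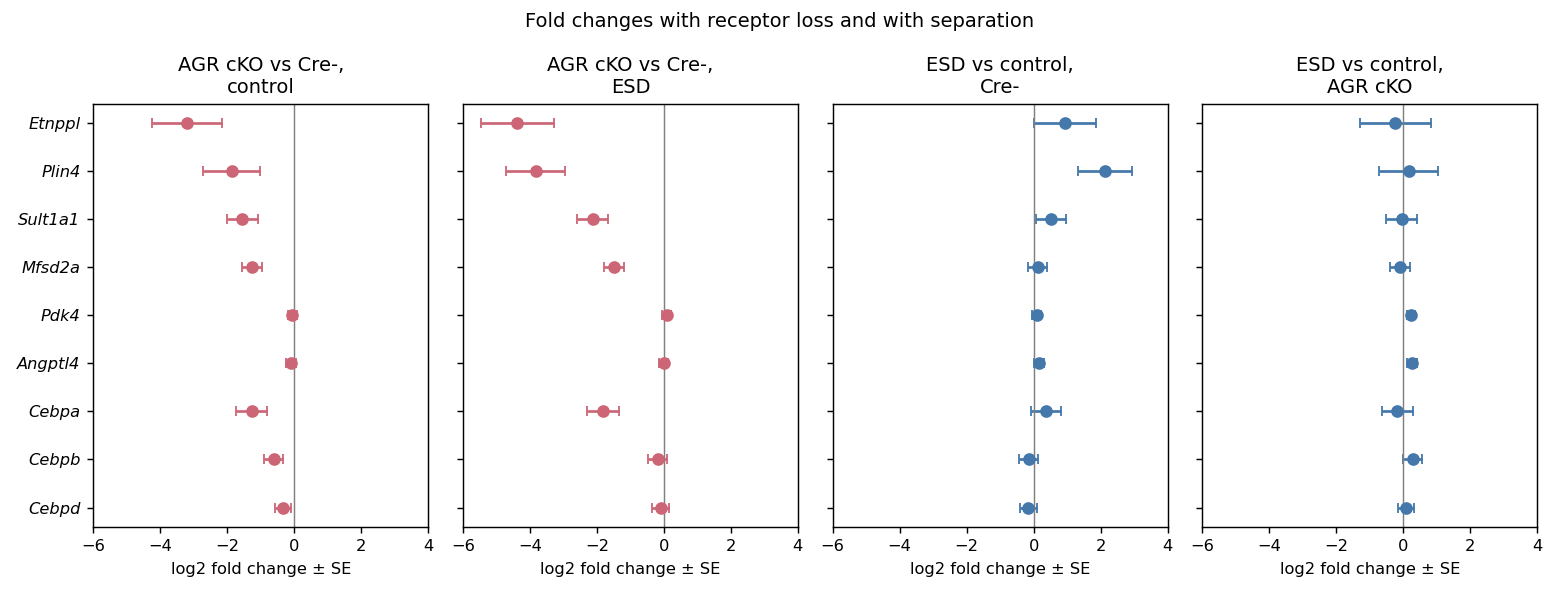
Fitted log2 fold change of each gene with its standard error (bars), for AGR cKO against Cre- in control and ESD mice (red) and for ESD against control in Cre- and AGR cKO mice (blue). Etnppl, Plin4, Sult1a1, Mfsd2a and Cebpa were picked for their place in the red panels, with values from -1.26 to -4.37, while the 4 values of Pdk4 and Angptl4 there run from -0.10 to 0.08.

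The 4 related genes were tested. Pdk4 (gene ID 27273, chromosome 6, 5483351 to 5496278) encodes a kinase that switches off the pyruvate dehydrogenase complex and thereby spares glucose, and it is a well-known glucocorticoid-induced gene of muscle and liver. Cre- control libraries held 89.7, 105 and 129 CPM, Cre- ESD libraries 105, 110 and 128 CPM, AGR cKO control libraries 110, 99.0 and 102 CPM and AGR cKO ESD libraries 128, 122 and 112 CPM. The genotypes overlapped in both rearing conditions. AGR cKO thus differed from Cre- by a log2 fold change of -0.05 ± 0.122 (adjusted p = 0.93) with control rearing and 0.08 ± 0.122 under ESD (adjusted p = 0.807).

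Angptl4 (gene ID 57875, chromosome 17, 33774900 to 33781575) encodes a secreted inhibitor of lipoprotein lipase, induced by fasting and glucocorticoids in fat. It stood at 56.3, 39.0 and 42.2 CPM in Cre- control, 48.9, 44.9 and 60.7 CPM in Cre- ESD, 40.6, 44.4 and 43.0 CPM in AGR cKO control and 54.1, 54.3 and 45.6 CPM in AGR cKO ESD libraries. The values of the genotypes interleaved. Fitted log2 fold changes of AGR cKO against Cre- were -0.10 ± 0.144 (adjusted p = 0.87) with control rearing and -0.01 ± 0.143 under ESD (adjusted p = 0.991).

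Cebpb and Cebpd encode C/EBP beta and C/EBP delta, which act early in adipocyte differentiation, ahead of C/EBP alpha. Cebpb (gene ID 12608, chromosome 2, 167688915 to 167690432) stood at 22.2, 12.1 and 21.4 CPM in Cre- control and at 9.64, 14.2 and 12.6 CPM in AGR cKO control libraries. Under ESD it stood at 13.2, 12.8 and 24.3 CPM in Cre- and at 12.8, 13.3 and 18.1 CPM in AGR cKO. The genotypes overlapped under both conditions. Its genotype difference, as log2 fold change, was -0.61 ± 0.288 in control mice (unadjusted p = 0.0562, adjusted p = 0.506) and -0.19 ± 0.286 under ESD (adjusted p = 0.808), and averaged over both it was -0.40 ± 0.203 (adjusted p = 0.306). Without the third Cre- ESD library the value under ESD was 0.18 and the averaged value -0.21.

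Cebpd (gene ID 12609, chromosome 16, 15887286 to 15889545) stood at 65.1, 60.9 and 72.6 CPM in Cre- control and at 47.7, 58.7 and 50.6 CPM in AGR cKO control libraries, which did not overlap. Under ESD the groups overlapped, with 41.8, 44.7 and 91.5 CPM in Cre- and 51.7, 48.9 and 65.6 CPM in AGR cKO. The log2 fold change was -0.34 ± 0.248 in control mice (adjusted p = 0.689) and -0.10 ± 0.247 under ESD (adjusted p = 0.894), and 0.36 without the third Cre- ESD library. Per length the order in Cre- control was Cebpd at 85.3 ± 8.70 TPM, Cebpb at 35.7 ± 11.9 TPM and Cebpa at 16.4 ± 2.48 TPM.

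In edgeR 0 of the 4 tested genes were called for genotype in control mice, where 0.0157% of all 19163 genes tested were called, in ESD mice, with 1.04% called, or averaged over both, with 3.49% called. Among these 4 genes 0 had an unadjusted p under 0.05 in these contrasts, and DESeq2 and limma called 0. Counting by overlap, 6 of the 9 genes lay lower in AGR cKO control than in any Cre- control library, the 5 picked ones and Cebpd, against 8.39% of all genes. Under ESD it was the 5 picked genes, against 9.64%, and over all 6 against 6 libraries the same 5, against 1.4%. The picked genes were chosen for this, so nothing can be read from those counts.

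The promoters of the picked genes are shown because a DNA-binding receptor was lost, with that of Pdk4 beside them as a gene whose genotypes overlapped. RefSeq windows on GRCm38.p6 were found for 7 of the 9 genes, in 8 windows, and the 250 bases upstream of the annotated start were searched on both strands. Printed is the stretch of each window that lies before every model of the gene starting inside it, in the deposited table or in GENCODE, which leaves 84 bases for Plin4, 183 for Sult1a1, 244 for Mfsd2a and 219 for Pdk4. The motif AGAACA, 6 bases that each arm of the receptor's palindromic site resembles, is in capitals where present. The printed Etnppl window lies before the longer model, which starts at 130617448, while the model with nearly all counts starts at 130617575. Each sequence reads 5′ to 3′ on the gene's strand.
Etnppl, chr3:130617198-130617447, plus strand: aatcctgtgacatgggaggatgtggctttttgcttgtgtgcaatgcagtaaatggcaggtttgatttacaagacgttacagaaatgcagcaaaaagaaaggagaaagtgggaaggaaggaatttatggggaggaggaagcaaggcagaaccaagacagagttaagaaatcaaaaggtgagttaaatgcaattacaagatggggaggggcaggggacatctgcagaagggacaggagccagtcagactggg
Plin4, chr17:56109949-56110032, minus strand: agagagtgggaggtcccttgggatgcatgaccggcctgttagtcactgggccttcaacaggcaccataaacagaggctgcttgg
Sult1a1, chr7:126676486-126676668, minus strand: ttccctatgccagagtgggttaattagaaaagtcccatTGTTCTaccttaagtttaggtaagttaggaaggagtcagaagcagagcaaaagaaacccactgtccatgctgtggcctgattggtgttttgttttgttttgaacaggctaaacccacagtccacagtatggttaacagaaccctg
Mfsd2a, chr4:122961195-122961438, minus strand: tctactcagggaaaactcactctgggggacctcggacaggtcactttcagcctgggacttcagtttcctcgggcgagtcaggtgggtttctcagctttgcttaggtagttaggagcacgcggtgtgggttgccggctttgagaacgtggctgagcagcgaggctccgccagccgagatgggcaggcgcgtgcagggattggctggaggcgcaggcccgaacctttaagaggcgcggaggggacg
Cebpa, chr7:35119043-35119292, plus strand: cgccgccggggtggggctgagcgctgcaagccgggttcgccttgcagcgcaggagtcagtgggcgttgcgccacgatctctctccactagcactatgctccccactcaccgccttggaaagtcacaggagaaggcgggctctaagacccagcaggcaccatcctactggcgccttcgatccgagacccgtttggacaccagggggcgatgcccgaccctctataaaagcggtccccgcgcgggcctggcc
Pdk4, chr6:5496310-5496528, minus strand: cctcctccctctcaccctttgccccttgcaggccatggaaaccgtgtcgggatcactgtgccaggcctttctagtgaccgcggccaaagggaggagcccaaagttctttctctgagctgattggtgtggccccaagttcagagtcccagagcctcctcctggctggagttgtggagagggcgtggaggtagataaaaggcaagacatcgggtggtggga

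AGAACA occurred in the Sult1a1 window alone among the 8, at positions -212 to -207 on the opposite strand and at -34 to -29 on the gene's strand, counted back from the start of the compact model; the latter lies inside another short model, 67 bases longer at this end, and is not printed. Of 32851 mouse windows of the same length, 16.1% hold this motif. The full palindrome, AGAACA and its reverse complement with 3 bases between them, is held by 0.00913% of windows and was in none of the 8. Neither were the C/EBP motif TTGCGCAA (0.164% of windows), its looser form TTGCNNAA (9.56%), which contains the former, or the PPAR element, a direct repeat of AGGTCA with 1 base between the copies (0.0335%). CCAAT, present in 33.8% of windows, was found at Sult1a1, Mfsd2a, Pdk4 and Plin4, and TATAAA, present in 12.4%, at Cebpa from -30 to -25. The CCAAT of Plin4, at -18 to -14, lies inside other models of that gene and is not printed. A match describes these letters, and its absence says nothing about binding elsewhere.

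At Sult1a1 the difference lay mostly in the short transcript models, which span about the gene as GENCODE annotates it (126672865 to 126676432). The compact model NM_133670 (chromosome 7, 126672865 to 126676418, 1275 bases) was assigned 12.4, 28.4 and 32.3 CPM in Cre- control and 4.03, 2.30 and 4.46 CPM in AGR cKO control libraries. Under ESD it had 21.7, 13.7 and 67.9 CPM in Cre- and 1.47, 3.12 and 9.15 CPM in AGR cKO, so that every Cre- library exceeded every AGR cKO library. Its mean was 6.77-fold lower in AGR cKO control and 7.52-fold lower in AGR cKO ESD.

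The extended model XM_006507538 runs from the same end to 126690443 (4232 bases) and lies over the same-strand gene Slx1b, a subunit of a DNA structure-specific endonuclease, and the pseudogene Gm6939. It was assigned 6.50, 13.1 and 10.5 CPM in Cre- control and 5.77, 11.4 and 7.18 CPM in AGR cKO control libraries, which overlapped, a mean 1.24-fold lower. Under ESD it had 10.9, 11.0 and 22.8 CPM in Cre- and 6.82, 6.51 and 6.94 CPM in AGR cKO, a mean 2.2-fold lower and without overlap. Its share of the gene's count went from 29.4% ± 4.51 (SD, n = 3) in Cre- control to 66.6% ± 13.4 in AGR cKO control, and from 33.6% ± 9.37 in Cre- ESD to 63.4% ± 19.9 in AGR cKO ESD. The gene count thus pools transcript models with unequal differences. How counts were divided between overlapping models is not given in the sources used here, and these values belong to the picked contrast and carry no test.

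**Figure D3:**
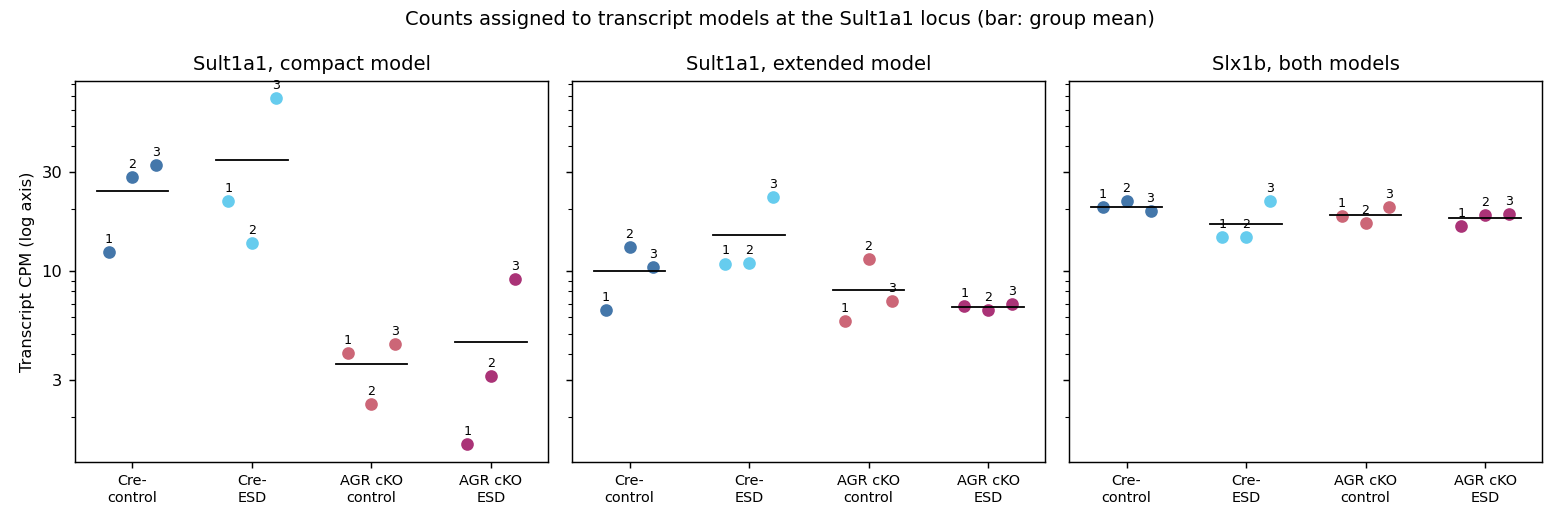
Counts assigned to the compact and the extended Sult1a1 model and to the overlapping gene Slx1b, in CPM on a log axis, for the 3 libraries of each group with the group mean (bar). The compact model separates the genotypes, with 12.4 to 67.9 CPM in Cre- and 1.47 to 9.15 CPM in AGR cKO libraries. The extended model overlaps between the genotypes in control mice and over all libraries, but not under ESD.

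Transcript assignment adds less for the other genes. Of the 2 Etnppl models NM_027907 carried at least 97.2% of the count in every library, and of the 2 Mfsd2a models NM_029662 carried 96.7% to 99.2%. The 3 Cebpb models share the same span, and the 11 Plin4 models overlap so widely that at these counts the assignment changed from library to library. Etnppl overlaps Gm36322, Plin4 the end of Hdgfl2 on the opposite strand, and Cebpd the end of Spidr on the opposite strand. The kit was stranded, but whether counting used the strand is not given, so reads of such neighbours may be included.

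The comparison of ESD with control asks whether early separation changed these genes, and it was not used to pick them. In Cre- mice 0 of the 9 genes were called in edgeR, DESeq2 or limma, and 1, Plin4, had an unadjusted p under 0.05 in edgeR. Over all genes edgeR called 0%, with 1378 of 19163 at an unadjusted p under 0.05, DESeq2 25 and limma 0. Plin4 had the largest value, at 3.39 ± 2.03 CPM (SD, n = 3) without separation and 14.9 ± 19.5 CPM with it (log2 fold change 2.14 ± 0.801, unadjusted p = 0.0211, adjusted p = 0.657). It was higher in 1 of 3 ESD libraries than in every control library, and the value was 0.11 without that library. Etnppl had a log2 fold change of 0.94 ± 0.924 (adjusted p = 0.854) and Sult1a1 of 0.52 ± 0.449 (adjusted p = 0.829). Mfsd2a was at 0.12 ± 0.291, Cebpa at 0.36 ± 0.452, Pdk4 at 0.09 ± 0.122, Angptl4 at 0.17 ± 0.144, Cebpb at -0.14 ± 0.286 and Cebpd at -0.16 ± 0.247 (adjusted p from 0.828 to 0.951). The groups overlapped for all 9 genes, where 11.1% of all genes did not overlap.

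The third Cre- ESD library held the highest of the 12 values for 8 of the 9 genes, all but Pdk4, which was highest in the third Cre- control library. When it was left out, the stress value in Cre- mice turned negative for Etnppl (-0.61), Sult1a1 (-0.26), Mfsd2a (-0.35) and Cebpa (-0.56), and for Cebpb and Cebpd it moved to -0.51 and -0.61. The first and second Cre- ESD libraries lay below all 3 Cre- control libraries for Mfsd2a, Cebpa and Cebpd. None of these values was called, with or without that library. Zbtb16, a zinc finger gene that glucocorticoids induce, was at 54.5, 48.7 and 104 CPM in the 3 Cre- ESD libraries and at 10.8 to 13.0 CPM in Cre- control, high in all 3, which was not so for any of the 9 genes. Tsc22d3, another such gene, was at 140, 152 and 367 CPM in Cre- ESD and 137 to 189 CPM in Cre- control libraries.

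**Figure D4:**
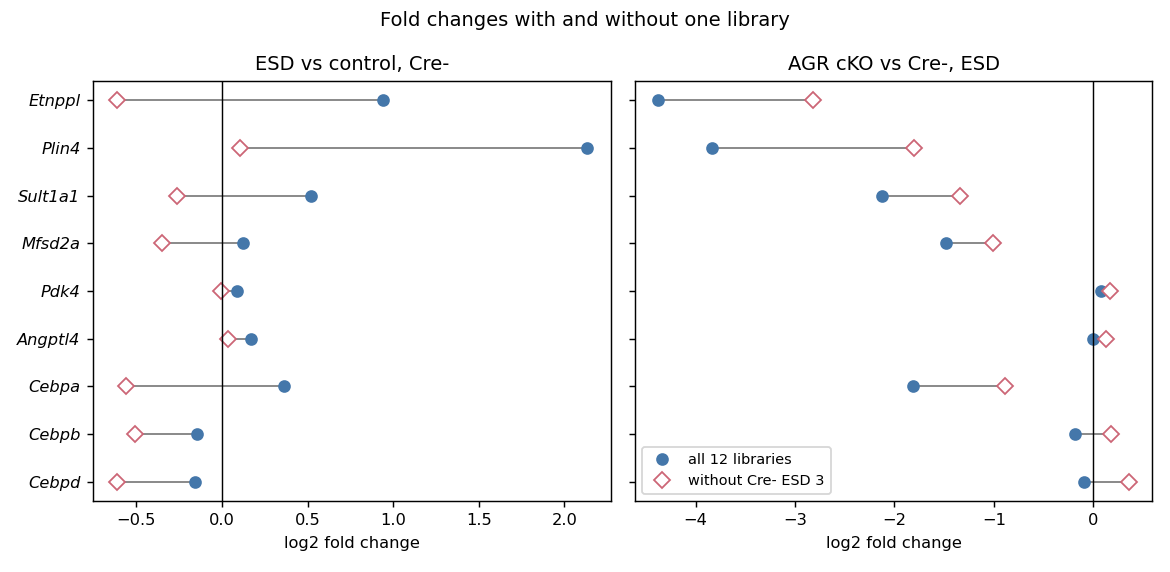
Log2 fold change of each gene from all 12 libraries (filled circles) and with the third Cre- ESD library left out (open diamonds), for ESD against control in Cre- mice (left) and AGR cKO against Cre- under ESD (right). On the left the values of Etnppl, Sult1a1, Mfsd2a and Cebpa change sign; on the right the values of the 5 picked genes stay negative and move towards 0.

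In AGR cKO mice 0 of the 9 genes were called for stress by edgeR, DESeq2 or limma, and 0 had an unadjusted p under 0.05. Over all genes edgeR called 0%, with 1453 at an unadjusted p under 0.05, DESeq2 18 and limma 0. Pdk4 went from 104 ± 5.82 CPM to 121 ± 7.93 CPM (SD, n = 3) (log2 fold change 0.22 ± 0.122, unadjusted p = 0.0986, adjusted p = 0.732). Angptl4 stood at 42.7 ± 1.88 and 51.3 ± 4.96 CPM (0.27 ± 0.144, unadjusted p = 0.0899, adjusted p = 0.726). All 3 ESD libraries were above all 3 control libraries for both genes, 2 of 9, where 16.6% of all genes did not overlap. The other 7 genes overlapped, with values from -0.24 ± 1.06 for Etnppl to 0.28 ± 0.288 for Cebpb (adjusted p from 0.861 to 0.991).

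The test of the difference between both stress effects called 0 of the 9 genes in edgeR, DESeq2 or limma, 0 of them with an unadjusted p under 0.05. Over all genes edgeR called 0%, with 860 at an unadjusted p under 0.05, and DESeq2 7. Plin4 had the largest value (-1.97 ± 1.18, unadjusted p = 0.121, adjusted p = 0.999), which was 0.06 without the third Cre- ESD library.

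Markers of other cells moved with genotype beside these genes. All 15 microglia and macrophage markers were lower in AGR cKO, at a median log2 fold change of -1.13 in control and -1.12 in ESD mice, and so were all 15 endothelial markers, at -0.986 and -1.03, while the median over all genes was -0.01 and 0.00. In edgeR 0 of these markers were called. At an unadjusted p under 0.05 averaged over rearing were 15 microglial and 13 endothelial markers, of which DESeq2 called 11 and 0. Of all 19163 genes 3841 were at that level in this contrast, where edgeR called 3.49% and DESeq2 1710 of 18364. Of 10 ependymal and choroid plexus markers 9 were lower averaged over rearing (median -0.60), 3 of them called, and all 5 erythroid markers were lower (median -1.04), 0 called and 5 at an unadjusted p under 0.05, with 2 called by DESeq2. All 10 neuron markers were higher in AGR cKO control (median 0.48, 3 at an unadjusted p under 0.05) and all 10 lower in AGR cKO ESD mice (median -0.60, 5 at that level), 0 called in edgeR and 2 and 1 in DESeq2. Over all genes 1958 were at that level in control and 2989 in ESD mice, and DESeq2 called 266 of 16715 and 791 of 16161. All 13 mural and fibroblast markers were lower in AGR cKO under ESD (median -0.46, 3 at an unadjusted p under 0.05). They were lower averaged over rearing too (median -0.26, 1 at that level), with 0 called. With control rearing 7 were higher and 6 lower. Of 12 astrocyte markers 8 were lower and 4 higher averaged over rearing (median -0.09). In edgeR 1 was called in each direction, where 3.49% of all genes were called. In bulk samples fewer cells of a type and less RNA per cell cannot be told apart.

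With control rearing endothelial markers summed to 469 to 2430 CPM in Cre- and 442 to 948 CPM in AGR cKO libraries, and under ESD to 549 to 1480 CPM and 323 to 641 CPM. Mfsd2a followed that sum in order within AGR cKO control (sums of 442, 559 and 948 CPM) and was lowest at the lowest sum in AGR cKO ESD, while in Cre- control and Cre- ESD it was highest where the sum was lowest. Microglial markers summed to 372 to 1070 CPM in Cre- and 198 to 474 CPM in AGR cKO libraries with control rearing, and to 505 to 872 CPM and 172 to 459 CPM under ESD. Cebpa followed that sum in order within AGR cKO control, was highest at the highest sum in AGR cKO ESD and lowest at the lowest in Cre- control, while in Cre- ESD it was highest at the lowest sum. The part of cell composition in these differences was not tested.

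With the mean level of the microglial and endothelial lists as a covariate, the genotype value averaged over rearing was -4.02 for Etnppl, -3.48 for Plin4, -2.12 for Sult1a1, -1.42 for Mfsd2a and -1.60 for Cebpa. Without it the values were -3.79, -2.85, -1.84, -1.37 and -1.54, and with the third Cre- ESD library left out -3.01, -1.83, -1.45, -1.14 and -1.08. These genes were picked for this contrast, so the values are a description. The first Cre- control library, with the lowest values of Etnppl, Plin4 and Sult1a1 among Cre- libraries, also had the lowest astrocyte sum, 44300 CPM, and the highest microglial and endothelial sums, 1070 and 2430 CPM. The part of cell composition in those low values was not tested either.

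**Figure D5:**
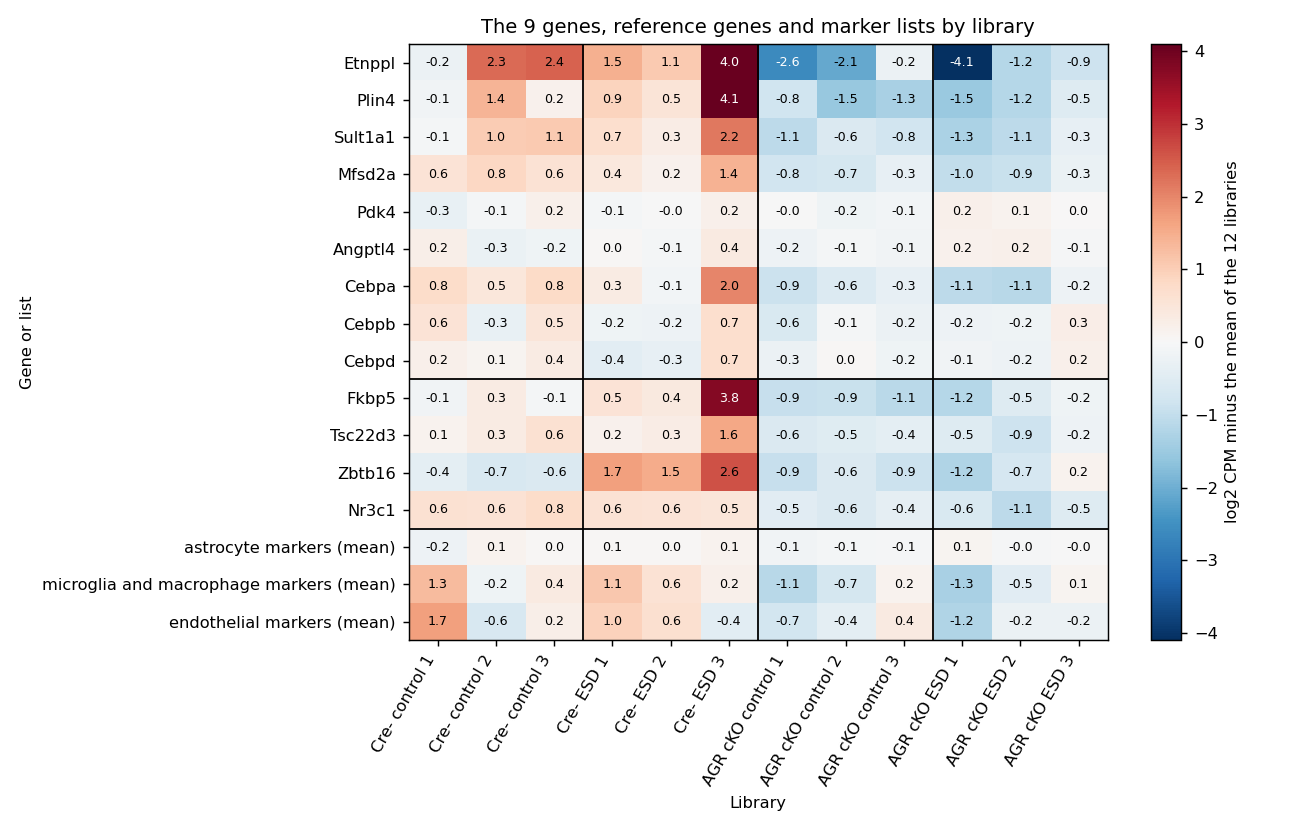
Log2 CPM of each gene minus its mean over the 12 libraries, for the 9 genes, 4 reference genes and the mean of 3 marker lists; red is above and blue below the mean, and black lines divide groups and gene sets. The third Cre- ESD column is the reddest for Plin4 (4.08) and Etnppl (4.04), and microglial and endothelial markers are highest in the first Cre- control library.

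Pathway genes around the 9 were read from 9 lists with 125 genes, of which 112 were tested. Of 19 genes of PPAR receptors and their targets 2 were called lower in AGR cKO averaged over rearing and 0 higher, where 3.49% of all genes were called. The list's median was -0.04 beside -0.0023 over all genes. Rxra, the retinoid X receptor that pairs with PPARs, fell from 38.6 ± 3.04 to 25.4 ± 0.936 CPM in control and from 45.3 ± 13.3 to 26.4 ± 3.27 CPM in ESD mice (-0.69 ± 0.119, adjusted p = 0.0127). Its call held with each library left out in turn.

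Of 13 genes that handle lysophospholipids and docosahexaenoic acid, 1 was called lower and 1 higher in AGR cKO averaged over rearing, where 3.49% of all genes were called. Their median was -0.14 beside -0.0023 over all genes. Acsl3, an acyl-CoA synthetase that activates fatty acids at the endoplasmic reticulum and lipid droplets, fell from 876 ± 127 to 568 ± 18.2 CPM in control and from 975 ± 270 to 545 ± 114 CPM in ESD mice (-0.73 ± 0.134, adjusted p = 0.017), a call lost without the second AGR cKO control library (adjusted p = 0.061). Fabp7, the brain fatty acid-binding protein of astrocytes and radial glia, rose from 281 ± 41.1 to 467 ± 47.8 CPM and from 340 ± 128 to 623 ± 148 CPM (0.80 ± 0.18, adjusted p = 0.0346). That call was lost when any 1 of 7 of the 12 libraries was left out and with the marker covariate (adjusted p = 0.132).

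Apart from the glucocorticoid-responsive comparators described below, each of the other lists had 0 genes called in edgeR or limma in any contrast. For these lists the gene with the smallest p is given. Averaged over rearing, an unadjusted p under 0.05 in edgeR was reached by 5 perilipin and droplet genes, 5 of the ethanolamine and choline list and 1 sulfonation gene. It was also reached by 1 gene of pyruvate dehydrogenase control, 1 C/EBP gene and 2 angiopoietin-like or lipase genes. Of all 19163 genes tested 3841 reached it. DESeq2 called 3, 1, 1, 0, 0 and 0 genes of these lists, and 1710 of 18364 over all genes. Under ESD DESeq2 called 1 perilipin and droplet gene and 1 of the ethanolamine and choline list, and 791 of 16161 over all genes. Among 16 tested genes of perilipins and lipid droplets the gene with the smallest p was Pnpla2, the triglyceride lipase of droplets. It was at -0.57 ± 0.151 averaged over rearing (adjusted p = 0.0633), and the list's median was -0.08. Among 16 genes of ethanolamine and choline phospholipid synthesis it was Pcyt2, the enzyme that activates phosphoethanolamine, at 0.42 ± 0.113 in AGR cKO under ESD (adjusted p = 0.112). Among 8 tested sulfonation genes it was Papss1, which makes the sulfonate donor, at 0.18 ± 0.053 averaged over rearing (adjusted p = 0.0853). Among 13 genes of pyruvate dehydrogenase control it was Pdpr, a subunit of the activating phosphatase, at 0.27 ± 0.0872 for stress in Cre- mice (adjusted p = 0.627). Among 3 tested further C/EBP genes it was Cebpg, at -0.24 ± 0.0901 averaged over rearing (adjusted p = 0.16). Among 11 tested angiopoietin-like and lipase genes it was Lipc, hepatic lipase, at 0.50 ± 0.38 CPM in Cre- control and 0.04 ± 0.0627 CPM in AGR cKO control (adjusted p = 0.322).

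Classical glucocorticoid-responsive genes served as comparators, a list chosen with earlier results of these data known. All 13 were lower in AGR cKO averaged over rearing, with a median of -0.77 beside -0.0023 over all genes. In edgeR 4 were called, where 3.49% of all genes were called: Hif3a (-2.37 ± 0.255, adjusted p = 0.0032), Zbtb16 (-1.37 ± 0.239, adjusted p = 0.0132), Tsc22d3 (-1.11 ± 0.221, adjusted p = 0.0237) and Nfkbia (-0.77 ± 0.173, adjusted p = 0.0341). The Zbtb16 difference lay mostly under ESD, where AGR cKO averaged 12.3 ± 6.06 CPM against 69.0 ± 30.3 CPM (SD, n = 3) for Cre-. With control rearing the averages were 9.81 ± 1.34 and 11.7 ± 1.14 CPM, a log2 fold change of -0.25 ± 0.337. For Zbtb16 the interaction was -2.24 ± 0.476 in edgeR (unadjusted p = 0.00055, adjusted p = 0.98) and was not called. The calls of Hif3a and Zbtb16 held with each library left out. That of Tsc22d3 was lost when any 1 of 5 libraries was left out, and that of Nfkbia when any 1 of 9 was. Fkbp5 was at -2.03 ± 0.521 (adjusted p = 0.0561) and, without the third Cre- ESD library, at -1.04 (adjusted p = 0.0138); it was called when any 1 of the 3 Cre- ESD libraries was left out. Values of the picked genes, chosen for it, stand above.

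Likeness of pattern was measured as the root mean square difference of log2 CPM, each gene centred on its mean over the 12 libraries, among 11212 genes with at least 5 CPM on average. Plin4 lay nearest to Fkbp5 (0.465), then Hif3a (0.604) and the potassium channel gene Kcnt1 (0.682). Without the third Cre- ESD library Hif3a was nearest to it (0.303) and Fkbp5 the 11th nearest (0.475). The nearest genes to Etnppl were Kcnt1 (1.15), Plin4 (1.22) and Hif3a (1.25), at a distance that left much of its spread of 2.25 unmatched. Plin4 reached the mean of 5 CPM only through the third Cre- ESD library (37.4 CPM), with 0.717 to 5.72 CPM in the others. It stayed among the genes compared when that library was left out. Sult1a1 lay nearest to Asic2 (0.202), Cdh19 (0.218) and Phyhd1 (0.303), Mfsd2a to Phyhd1 (0.16), Cables1 (0.174) and the connexin gene Gjb6 (0.199), and Cebpa to Rhou (0.217), Lrrc8c (0.223) and Mfsd2a (0.252).

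The genes that did not separate the genotypes had other neighbours. The picking favours this, since the distances include the difference between genotypes. Cebpd was the second nearest gene to Cebpb (0.222), between Pmp22 (0.22) and Junb (0.227), which left much of the spread of Cebpb (0.395) unmatched. Cebpd was only the 11th nearest to Cebpb (0.232) without the third Cre- ESD library. The nearest to Cebpd were Ppp1r3g (0.111), Fzd1 (0.141) and Stat5a (0.142). Pdk4 lay nearest to Eif3j1 (0.0732), Sox9 (0.0844) and Pdhx (0.09), and Angptl4 to Zfp212 (0.0818), Eloa (0.103) and Rnf220 (0.124). Their own spreads were small, at 0.158 for Pdk4 and 0.196 for Angptl4. Without the third Cre- ESD library the nearest gene was the same for Etnppl, Sult1a1, Mfsd2a and Pdk4 and another for Plin4, Cebpa, Cebpb, Cebpd and Angptl4. These distances are descriptions over 12 libraries that share depth, marker content and the third Cre- ESD library. Nearness of a picked gene to other genes lower in AGR cKO likewise reflects the choice and was not tested.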

How the data were processed

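RNA of 12 libraries was measured by RNA sequencing. In the tables the authors deposited, each gene and each transcript has whole-number counts, 1 column for a library. FPKM values and TPM values stand beside them, per the file headers; FPKM was not analysed. How reads were assigned is not given in the sources used here. StringTie 1.3.4b, HISAT2 2.1.0, Trimmomatic, Bowtie2, HISAT and DESeq2 are named in the submitters' processing notes, with build mm10 and no order. Column names give genotype as cre_M or cre_P, taken here for Cre- and AGR cKO; 0 columns were left unused.

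Gene counts were tested in edgeR 4.0.16 (R 4.3.3): filterByExpr (19163 genes), TMM factors, and a quasi-likelihood fit of 1 mean per group over all 12 libraries (8 residual degrees of freedom, common biological coefficient of variation 0.1945). Tests were two-sided, and a gene was called where its p, adjusted by Benjamini-Hochberg across the 19163 genes, was under 0.05. SE is the log2 fold change over the square root of F. The 6 contrasts were stress in each genotype, genotype in each rearing condition and averaged over both, and the interaction; stress in Cre- and genotype under ESD share the Cre- ESD libraries. Log2 CPM with a prior count of 2 served for likeness of pattern. The test was tried on simulated data.

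Genes and lists were chosen with earlier results of these data known. Named beside the 9 are Nr3c1, Fkbp5, Tsc22d3 and Zbtb16, up to 4 called genes of each list or else the gene with the smallest p, and the 3 nearest genes in pattern. A called gene of the PPAR list is not reported here. Alternatives were other scalings and filters, DESeq2 1.42.0, limma 3.58.1 on log2(TPM + 1) and log2(TPM + 0.1), only the groups compared, a replicate block, a marker covariate, robust moderation and each library left out. Promoter sequences are RefSeq's, on GRCm38.p6.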

Additional observations from a re-analysis of the deposited data

How the results depend on the processing

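In every alternative 0 of the tested genes among the 9 were called, in any contrast. Of the values under alternatives, 1361 stayed the same, 50 reversed, 37 lost a call, 3 gained one and 20 moved. A tested value stayed the same if it kept its direction and its side of the threshold. Genotype values of the picked genes had no threshold, and stayed the same if they kept direction and shifted by less than the within-group SD of log2 CPM. A distance stayed the same if the gene remained among the 3 nearest. A larger shift, or a gene no longer among the 3 nearest, counted as moved. The distances without the third Cre- ESD library were chosen after seeing the data. Calls lost by Acsl3, Fabp7, Tsc22d3 and Nfkbia are given with those genes; that of Nfkbia was also lost with the marker covariate and in limma, and that of Zbtb16 with the covariate (adjusted p = 0.0547). The order of group means in deposited TPM was that of CPM for 7 of the 9 genes, all but Sult1a1 and Angptl4. With log2(TPM + 1), Plin4 had a genotype difference of -1.78 under ESD and -1.29 averaged over rearing; a pseudocount shrinks the change of a low gene.

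Small values changed sign, and the cause was not tested. With the marker covariate Angptl4 had a genotype difference of 0.00553 averaged over rearing and 0.057 under ESD, and Pdk4 of -0.13 and -0.082. In limma the genotype difference of Angptl4 under ESD was 0.0148 with log2(TPM + 1) and 0.01504 with log2(TPM + 0.1), and the stress value of Mfsd2a in Cre- mice was -0.01932 and -0.01959.

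With each library left out in turn, the stress value in Cre- mice ranged from -0.61 to 1.37 for Etnppl, -0.26 to 0.84 for Sult1a1, -0.348 to 0.348 for Mfsd2a, -0.56 to 0.72 for Cebpa, -0.0285 to 0.23 for Pdk4, -0.51 to 0.017 for Cebpb and -0.61 to 0.049 for Cebpd. In AGR cKO mice it ranged from -0.72 to 0.86 for Etnppl, -0.17 to 0.41 for Plin4, -0.40 to 0.14 for Sult1a1, -0.38 to 0.0602 for Mfsd2a and -0.063 to 0.17 for Cebpd. The interaction ranged from -1.67 to 0.38 for Etnppl, -2.58 to 0.05999 for Plin4, -0.93 to 0.21 for Sult1a1, -0.51 to 0.25 for Mfsd2a, -0.92 to 0.38 for Cebpa, -0.016 to 0.25 for Pdk4 and -0.077 to 0.23 for Angptl4. The genotype difference in control mice ranged from -0.17 to 0.096 for Pdk4 and -0.20 to 0.072 for Angptl4. Under ESD it ranged from -0.094 to 0.13 for Angptl4, -0.36 to 0.18 for Cebpb and -0.30 to 0.36 for Cebpd, and averaged over rearing from -0.044 to 0.088 for Pdk4, -0.10 to 0.033 for Angptl4 and -0.31 to 0.0093 for Cebpd.

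Over all genes, edgeR called 3 for genotype in control mice (0 to 63 with a library left out, 2 to 266 otherwise), 200 under ESD (2 to 280 and 0 to 791) and 668 averaged over rearing (151 to 932 and 286 to 1710). For stress in Cre- mice, stress in AGR cKO mice and the interaction it called 0, with at most 1, 0 and 0 when a library was left out and at most 25, 18 and 7 otherwise.

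Libraries of different groups share replicate numbers. Deviations from the group means correlated from -0.104 to 0.227 over the 18 same-numbered pairs, so the numbers were not taken to pair the libraries. With a replicate block 2 genes were called for genotype in control mice, 244 under ESD and 799 averaged over rearing, and 0 of the tested genes among the 9.

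Depth limits Plin4, with 33 to 1715 counts per library, and Etnppl, with 12 to 3652. Each group has 3 libraries, and 1 library of Cre- ESD stands apart.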
